A study of Mus musculus with 11 samples.

Results

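Collagen genes and the genes of collagen-processing enzymes were followed in mouse skin after dosing with ABBV-075, also called mivebresib, which blocks the bromodomains by which BET proteins bind acetylated histones. The set held 40 genes, taken by name and role: 8 fibrillar chains, 10 basement membrane chains, 10 other chains and 12 processing enzymes, out of 18194 genes with a probe set of their own on the array. Skin was collected 6 h after 1 mg/kg of ABBV-075 (4 samples), 24 h after the same dose (4 samples), and after vehicle (3 samples). Each sample was labelled as the skin of 1 mouse, and its total RNA was read on Affymetrix 3' arrays after amplification from 200 ng. The labels name no strain, age, sex, route of dosing or collection time for vehicle skin, and do not say whether the 6 h and 24 h skins came from separate mice. P-values here measure the spread between these samples. By its title the series looked for transcripts of mouse skin that respond to the compound.

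Collagen chains are hydroxylated on proline and lysine in the endoplasmic reticulum, where they fold into a helix of chains. Outside the cell the propeptides are cut off and lysyl oxidases cross-link the chains into fibrils or networks. In skin, dermal fibroblasts make most of the fibrillar collagens I, III and V, and basal keratinocytes add chains of the junction between dermis and epidermis, among them collagens VII and XVII.

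Levels are log2(intensity + 16) of quantile-normalized intensities, on which 4.00 is the floor, and differences are on the same scale. A probe set's level was not set against that of another probe set, because brightness also depends on the probes. Of the 40 genes, 39 had a probe set of their own and 38 passed the filter on dim genes. Loxl2, a lysyl oxidase relative, was read only by 2 probe sets that it shares with the predicted gene Gm21451 and was not analysed here. Col4a3, a basement membrane chain, did not pass the filter: its levels were 4.36 to 5.05 at 6 h, 4.00 to 4.80 at 24 h and 4.26 to 5.92 in vehicle skin. The other 38 genes are described by class.

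The arrays differed in brightness and in RNA control ratios. Array brightness, as a trimmed mean of the deposited intensities, was 82.8 to 244 at 6 h, 116 to 183 at 24 h and 205 to 244 in vehicle skin. The 5' to 3' ratio of the beta-actin control, which is lower in shortened RNA, was 0.0725 to 0.425 at 6 h, 0.198 to 0.529 at 24 h and 0.484 to 0.593 in vehicle skin. The same ratio of Gapdh was 0.104 to 0.711, 0.804 to 1.08 and 0.698 to 0.911. The actin ratio was under 0.3 on 6 h replicates 3 and 5 and on 24 h replicate 2. Every 6 h array had a lower actin ratio than every vehicle array. For all genes, the 6 h differences from vehicle therefore cannot be told apart from differences in this ratio. All 9 basal keratinocyte and all 14 fibroblast markers passed the filter, but so did 13710 of 18194 genes, which makes this a weak check of the labelled tissue. All 8 skeletal muscle markers passed as well, and so did 2 of 4 liver markers, a list chosen for an absent tissue. The 2 liver markers summed to 2749 to 3323 intensity units in vehicle skin. On 24 h replicate 4 the fibroblast markers summed to 14752 intensity units, against 35796 to 43073 on the other 24 h arrays, and the basal keratinocyte markers to 48602, against 13904 to 19140.

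Collagen VI chains, Col4a1, Col4a2 and Col15a1 lay below vehicle on average at both times and under each scaling. So did the enzymes Plod3, Plod1, Loxl1 and Lox, which modify or cross-link collagen, and Pcolce, an enhancer of the protease that cuts off a propeptide. In the deposited values the median of all genes itself lay at -0.68 at 6 h and -0.62 at 24 h. Here and below, a value below 0 as deposited is therefore no support of its own. Chains of the epidermal junction, Col4a5, Col4a6, Col7a1 and Col17a1, lay above vehicle on average. Col4a6 was dim, and without 24 h replicate 4 it was at -0.45 at 24 h. Without 6 h replicate 1, Col17a1 was at -0.01 at 6 h. As deposited, Col4a5 and Col17a1 at both times, Col7a1 at 6 h and Col4a6 at 24 h lay below vehicle, but above the median of all genes. No gene of the set passed the test against vehicle or between times. With limma and an adjusted p threshold of 0.05 over 13710 genes, 0 of 38 genes differed in each of the 3 contrasts, against a background of 0% in either direction. At an unadjusted p under 0.05, 9 genes were lower and 1 was higher at 6 h, where the backgrounds were 8.05% and 8.02% of all genes. At 24 h, 10 genes were lower and 0 higher at that threshold, with backgrounds of 4.47% and 3.16%. For 24 h minus 6 h, 0 genes were lower and 0 higher, with backgrounds of 5.51% and 3.76%. With an unequal-variance test, a variance trend or a fit of the groups compared alone, 0 genes passed after adjustment. With array weights, 12 genes passed at 6 h, 11 lower and 1 higher, where 18.2% of all genes passed. Without normalization beyond that of the deposited values, the median of all genes lay at -0.68 at 6 h, and 10 genes passed, each lower, against 6.27% of all genes. Neither setting called a gene of the set at 24 h.

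Most of the set nonetheless lay below vehicle on average. At 6 h, 30 of 38 differences were below 0 and 8 above, against 49.6% and 50.4% of all genes, and the median was -0.37, against 0.0037 for all genes. At 24 h, 28 of 38 were below 0 and 10 above, against 52.4% and 47.6% of all genes, and the median was -0.49, against -0.020. Both contrasts use the same 3 vehicle arrays, so they are not independent. Leaving out vehicle replicate 1 brought the 24 h median to -0.27, and leaving out 24 h replicate 4 brought it to -0.37. Every 6 h array lay below every vehicle array for 9 genes, where this held for 8.77% of all genes, and every 24 h array did so for 10 genes, where it held for 6.02%. Without 6 h replicate 3 the 6 h count was 15 genes, with 12.0% of all genes. Without 6 h replicate 1, 2 or 5 it was 10, 9 and 12 genes, with 12.4%, 9.88% and 14.0% of all genes. Treated arrays lay below vehicle at both times for 6 genes, namely Col4a2, Col15a1, Col6a1, Col6a2, Plod3 and Pcolce, and for 2.59% of all genes. No gene of the set lay above every vehicle array at either time, against backgrounds of 9.77% and 5.09%.

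**Figure D1:**
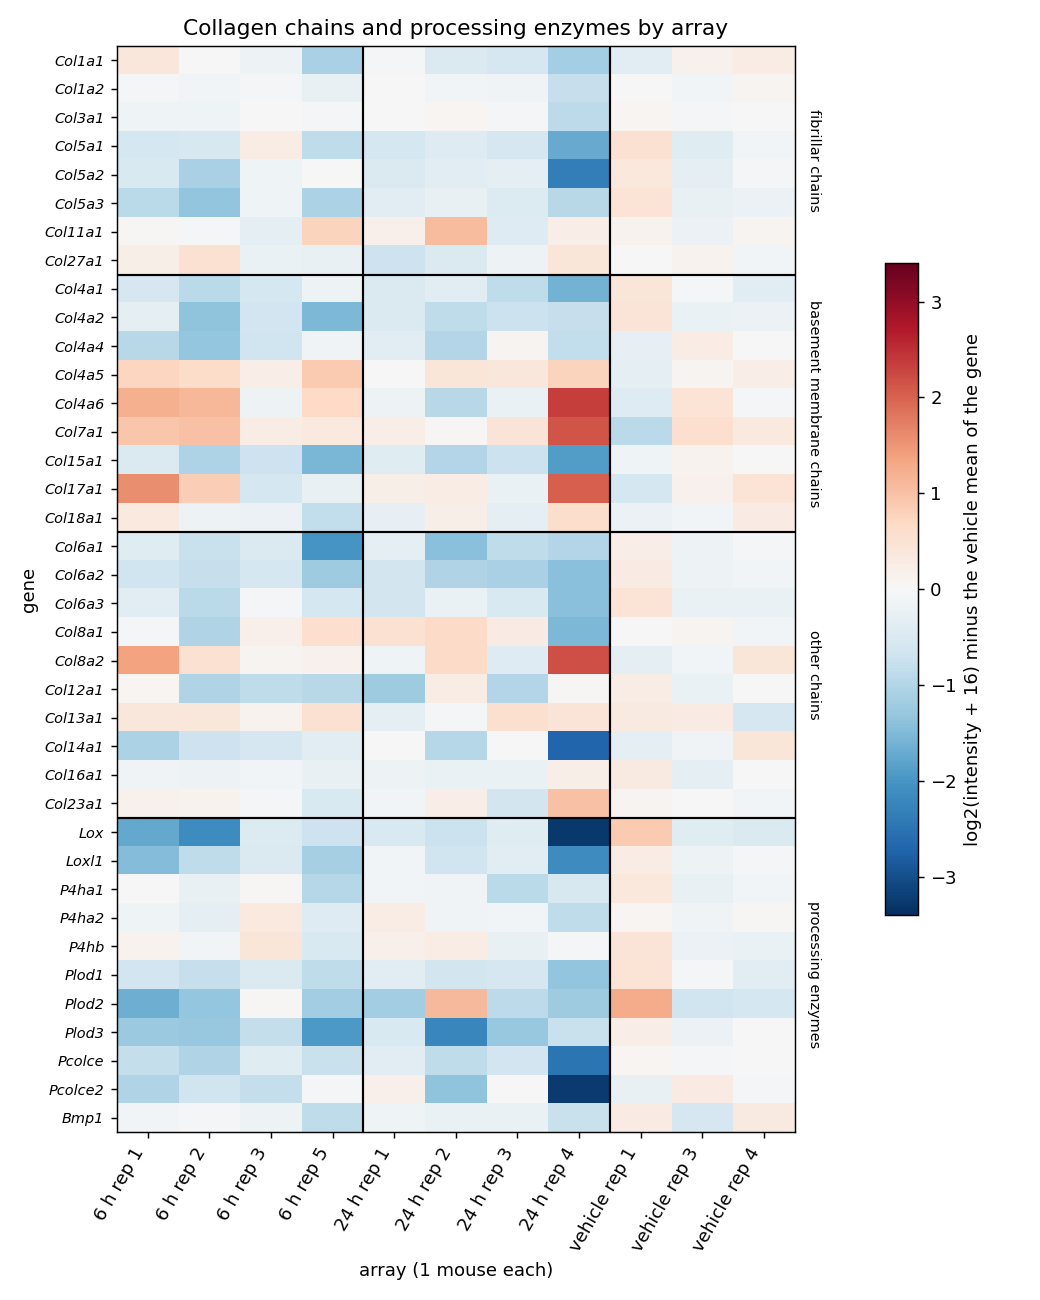
Level of each of the 38 genes on each array minus that gene's vehicle mean, in log2(intensity + 16); columns are mice grouped as 6 h, 24 h and vehicle, rows are genes by class, and blue is below and red above the vehicle mean. Blue prevails in the collagen VI and enzyme rows at both times, and 24 h replicate 4 holds both the deepest blue (Lox, Pcolce2, Col14a1, Pcolce) and the deepest red (Col4a6, Col8a2, Col7a1, Col17a1) fields.

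Per-array levels are listed in the order of replicates 1, 2, 3 and 5 at 6 h, 1, 2, 3 and 4 at 24 h, and 1, 3 and 4 in vehicle skin. Fibrillar chains form the striated fibrils of the dermis. Over the 8 chains the median difference from vehicle was -0.17 at 6 h, which became 0.14 with median scaling, and -0.38 at 24 h, which kept its sign under each scaling. No fibrillar chain had a 6 h group below every vehicle array, and 2 of 8 had such a 24 h group. Of all genes, 8.77% and 6.02% did.

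Col1a1 encodes the main chain of collagen I, the most abundant protein of the dermis. Its level was 12.92, 12.53, 12.36 and 11.42 at 6 h, 12.50, 12.05, 11.94 and 11.38 at 24 h and 12.14, 12.67 and 12.78 in vehicle skin. The groups overlapped: 6 h replicate 1 was the highest of all arrays, and 24 h replicate 4 and 6 h replicate 5 were the lowest. The difference was -0.22 ± 0.35 at 6 h (SE; adjusted p = 0.784) and -0.56 ± 0.35 at 24 h (adjusted p = 0.704). At 6 h its sign turned with median scaling (0.14) and without 6 h replicate 5 (0.07). A dimmer probe set of Col1a1 differed by -0.55 at 6 h and -0.80 at 24 h.

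Col1a2, the partner chain of collagen I, had levels of 13.62, 13.57, 13.60 and 13.40 at 6 h, 13.64, 13.56, 13.54 and 12.89 at 24 h and 13.67, 13.57 and 13.74 in vehicle skin. Col3a1, the chain of collagen III, had levels of 13.75, 13.75, 13.91 and 13.83 at 6 h, 13.88, 13.96, 13.83 and 13.01 at 24 h and 13.96, 13.83 and 13.91 in vehicle skin. For both genes 24 h replicate 4 lay below all other arrays, which ran from 13.40 to 13.74 for Col1a2 and from 13.75 to 13.96 for Col3a1. The differences were -0.11 ± 0.19 and -0.09 ± 0.22 at 6 h and -0.25 ± 0.19 and -0.23 ± 0.22 at 24 h, and without 24 h replicate 4 those at 24 h were -0.08 and -0.01. With median scaling all 4 differences were above 0, at 0.62 and 0.68 for 6 h and 0.11 and 0.15 for 24 h. These probe sets lay near the top of the scale, where intensities of Col3a1 ran from 8213 to 15884 and the brightest probe set of an array read 16864. A dimmer probe set of Col3a1 showed differences of -0.44 at 6 h and -0.86 at 24 h, and one of Col1a2 of -0.17 and -0.71, while the dimmest probe set of Col1a2 showed 0.19 and 0.27.

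Collagen V chains nucleate and limit the width of collagen I fibrils. Col5a1 levels were 9.95, 9.997, 10.78 and 9.68 at 6 h, 9.94, 10.10, 9.95 and 8.84 at 24 h and 11.04, 10.13 and 10.44 in vehicle skin. All 24 h arrays were below all vehicle arrays, the closest being 10.10 on 24 h replicate 2 against 10.13 on vehicle replicate 3, while at 6 h replicate 3 lay inside the vehicle range. Col5a2 levels were 11.41, 10.83, 11.80 and 11.94 at 6 h, 11.45, 11.58, 11.60 and 9.59 at 24 h and 12.29, 11.63 and 11.90 in vehicle skin, again with no overlap at 24 h and with 24 h replicate 4 far below the rest. Col5a3 levels were 8.26, 7.85, 9.02 and 8.09 at 6 h, 8.79, 8.93, 8.71 and 8.23 at 24 h and 9.64, 8.91 and 8.98 in vehicle skin. Here 6 h replicate 3 lay within the vehicle range and the other 6 h arrays below it. The 6 h differences were -0.44 ± 0.36, -0.44 ± 0.46 and -0.87 ± 0.30 for Col5a1, Col5a2 and Col5a3, with adjusted p of 0.569, 0.66 and 0.216. The 24 h differences were -0.83 ± 0.36, -0.88 ± 0.46 and -0.51 ± 0.30, with adjusted p of 0.632, 0.669 and 0.685. Without 24 h replicate 4, the 24 h differences of Col5a1 and Col5a2 were -0.54 and -0.39. At 6 h, Col5a1 was at -0.18 without vehicle replicate 1 and Col5a2 at -0.22 without 6 h replicate 2.

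Col27a1, a fibrillar chain best known from cartilage, had levels of 6.33, 6.65, 5.90 and 5.87 at 6 h, 5.42, 5.63, 5.96 and 6.53 at 24 h and 6.10, 6.25 and 6.02 in vehicle skin, which overlapped between all groups. Col11a1, a minor fibrillar chain that is also prominent in cartilage, was dim, with levels of 5.20 to 6.70 over all 11 arrays and differences of 0.10 at 6 h and 0.26 at 24 h.

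Basement membrane chains split by gene. Over the 9 chains tested, the median difference was -0.22 at 6 h and 0.05 at 24 h. Without 6 h replicate 5 the 6 h value was -0.018. The 24 h value was -0.66 in the values as deposited, -0.09 with median scaling and -0.43 without 24 h replicate 4. At 6 h, 5 of 9 differences were below 0, and 2 chains lay below every vehicle array. At 24 h these counts were 4 of 9 and 3. Of all genes, 49.6% and 52.4% had differences below 0, and 8.77% and 6.02% lay below every vehicle array.

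The genes of collagen IV lie head to head in pairs, so that each pair is read in opposite directions from the stretch of DNA between them. The pair Col4a1 and Col4a2 lay below vehicle on average and the pair Col4a5 and Col4a6 above it, but Col4a6 at 24 h was at -0.45 without 24 h replicate 4. The RefSeq promoter windows of these 4 genes, out of 30 members with a window, are shown. They are of build GRCm38.p6, 250 bases before to 50 after the start, 5' to 3' on the gene's strand. Capitals mark CCAAT or its reverse ATTGG, and GGGCGG or its reverse CCGCCC, letters that are bound by the factors NF-Y and Sp1. Col4a1 is read from the minus strand at chr8:11312777-11313076, Col4a2 from the plus strand at chr8:11312555-11312854, Col4a5 from the plus strand at chrX:141475169-141475468 and Col4a6 from the minus strand at chrX:141474027-141474326.
Col4a1: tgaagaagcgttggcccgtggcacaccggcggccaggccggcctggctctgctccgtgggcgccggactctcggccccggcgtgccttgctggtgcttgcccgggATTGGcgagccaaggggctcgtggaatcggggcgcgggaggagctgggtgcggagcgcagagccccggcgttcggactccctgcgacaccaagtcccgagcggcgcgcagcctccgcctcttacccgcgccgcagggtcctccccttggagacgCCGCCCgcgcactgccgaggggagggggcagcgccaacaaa
Col4a2: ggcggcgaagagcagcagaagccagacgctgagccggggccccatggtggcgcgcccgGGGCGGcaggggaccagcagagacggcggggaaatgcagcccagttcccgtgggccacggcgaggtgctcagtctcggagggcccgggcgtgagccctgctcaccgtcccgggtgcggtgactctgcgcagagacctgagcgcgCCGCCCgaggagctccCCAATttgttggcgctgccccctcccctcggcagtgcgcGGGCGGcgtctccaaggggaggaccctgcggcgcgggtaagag
Col4a5: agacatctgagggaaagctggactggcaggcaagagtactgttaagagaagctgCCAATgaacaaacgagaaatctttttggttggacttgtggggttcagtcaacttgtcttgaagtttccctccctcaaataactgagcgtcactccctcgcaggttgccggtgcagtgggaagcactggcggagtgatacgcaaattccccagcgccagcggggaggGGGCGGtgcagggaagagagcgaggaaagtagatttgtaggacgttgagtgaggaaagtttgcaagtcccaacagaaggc
Col4a6: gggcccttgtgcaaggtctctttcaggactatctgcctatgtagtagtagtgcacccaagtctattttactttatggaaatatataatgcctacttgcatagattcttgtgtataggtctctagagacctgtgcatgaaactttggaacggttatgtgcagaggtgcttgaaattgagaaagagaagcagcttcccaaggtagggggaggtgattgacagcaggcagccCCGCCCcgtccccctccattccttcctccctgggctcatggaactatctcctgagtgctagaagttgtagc
The windows of Col4a1 and Col4a2 shared 78 bases, with 1 GGGCGG match in the shared stretch, and those of Col4a5 and Col4a6 lay 842 bases apart. GC content was 74.0% and 73.7% in the first pair and 52.7% and 48.3% in the second, against a median of 52.7% over 32851 windows. CCAAT was found once each in Col4a1, Col4a2 and Col4a5 and not in Col4a6, and it occurred in 37.4% of all windows. GGGCGG was found once in Col4a1, Col4a5 and Col4a6 and at 3 places in Col4a2, and it occurred in 35.7% of all windows. A match describes the letters and is no evidence of a bound factor.

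Col4a1 and Col4a2 encode the chains of the collagen IV network that underlies vessels and most epithelia. Col4a1 levels were 10.80, 10.47, 10.79 and 11.22 at 6 h, 10.89, 11.004, 10.52 and 9.79 at 24 h and 11.80, 11.32 and 11.04 in vehicle skin. All 24 h arrays lay below all vehicle arrays, the closest being 11.004 on 24 h replicate 2 against 11.04 on vehicle replicate 4, and at 6 h replicate 5 lay inside the vehicle range. Col4a2 levels were 9.89, 8.87, 9.57 and 8.71 at 6 h, 9.74, 9.38, 9.51 and 9.46 at 24 h and 10.66, 9.999 and 10.03 in vehicle skin, with neither time overlapping vehicle. For Col4a1 the difference was -0.56 ± 0.30 at 6 h (adjusted p = 0.393) and -0.83 ± 0.30 at 24 h (adjusted p = 0.59). For Col4a2 it was -0.97 ± 0.29, or 1.96-fold lower, at 6 h (adjusted p = 0.183) and -0.71 ± 0.29, or 1.64-fold lower, at 24 h (adjusted p = 0.608). Both signs held under each scaling, with array weights, with the replicate block and without any single array.

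Col4a5 and Col4a6 encode the chains of a collagen IV network found in the basement membrane of the epidermis. Col4a5 levels were 8.97, 8.87, 8.47 and 9.11 at 6 h, 8.23, 8.65, 8.61 and 8.99 at 24 h and 7.90, 8.33 and 8.47 in vehicle skin. At 6 h replicates 1, 2 and 5 were above all vehicle arrays, and replicate 3 was level with vehicle replicate 4. Col4a6 levels were 6.56, 6.48, 5.18 and 6.01 at 6 h, 5.17, 4.40, 5.14 and 7.69 at 24 h and 4.92, 5.82 and 5.31 in vehicle skin, with 24 h replicate 4 far above all other arrays and the other 24 h arrays inside or below the vehicle range. Col4a5 showed differences of 0.62 ± 0.23 at 6 h (adjusted p = 0.241) and 0.39 ± 0.23 at 24 h (adjusted p = 0.69). As deposited, its differences were -0.17 and -0.35, while the median of all genes lay at -0.68 and -0.62. A dimmer Col4a5 probe set differed by only 0.26 at 6 h and 0.03 at 24 h. Col4a6 differed by 0.71 ± 0.65 at 6 h and 0.25 ± 0.65 at 24 h, and without 24 h replicate 4 its 24 h difference was -0.45. It was dim, above the level of the filter on dim genes (5.21) on only 6 of 11 arrays.

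**Figure D2:**
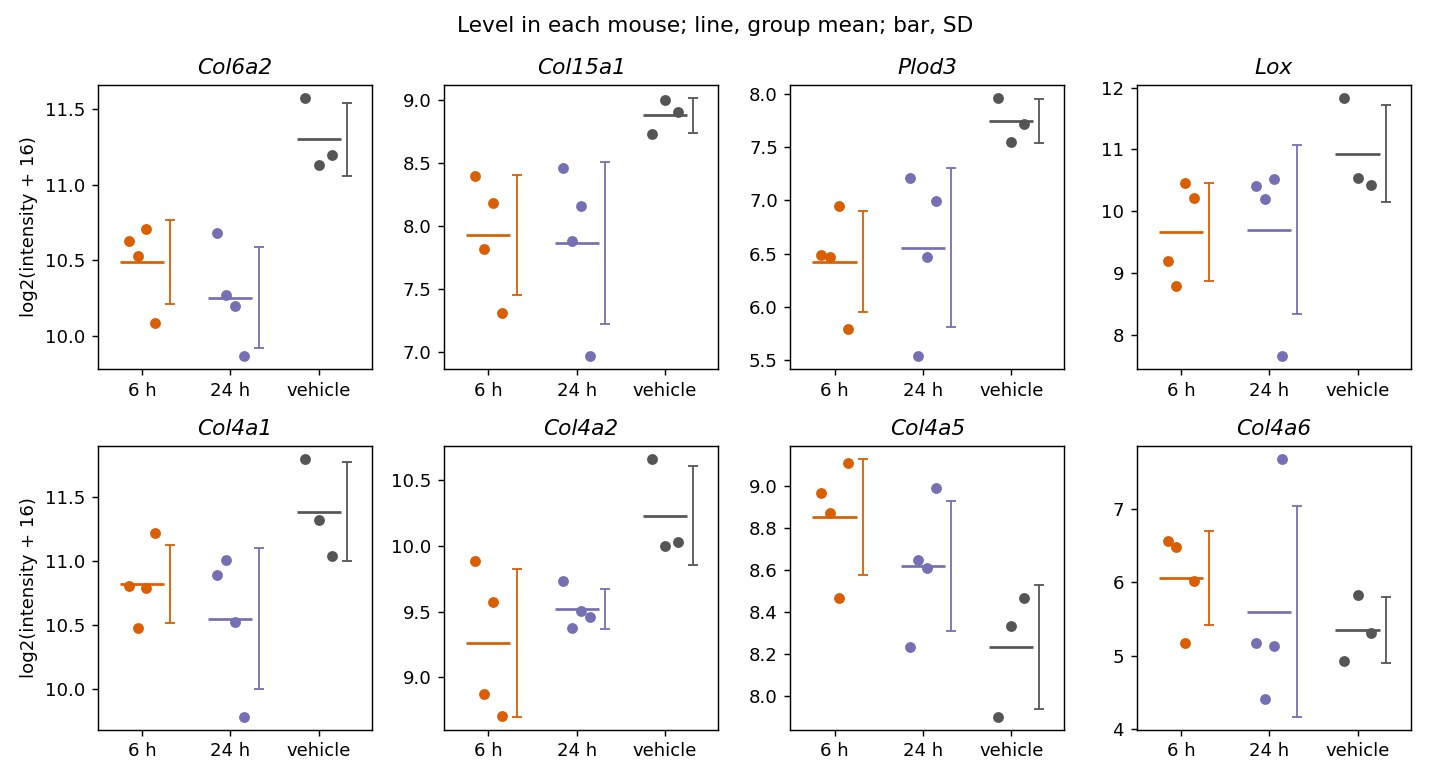
Level of 8 genes in each mouse, in log2(intensity + 16), at 6 h, 24 h and in vehicle skin; points are mice, the horizontal line is the group mean and the bar its SD. Col6a2, Col15a1, Plod3 and Col4a2 show no overlap between vehicle and either time. Lox and Col4a6 have 24 h replicate 4 far from the other 24 h mice. Col4a5 lies above vehicle on most 6 h arrays. As deposited, Col4a5 lies below vehicle on average, but above the median of all genes.

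Col4a4, a chain of the same family best known from the kidney filter, had levels of 6.17, 5.78, 6.43 and 6.99 at 6 h, 6.71, 6.11, 7.21 and 6.27 at 24 h and 6.84, 7.35 and 7.13 in vehicle skin. Its differences were -0.76 ± 0.32 at 6 h (adjusted p = 0.282) and -0.53 ± 0.32 at 24 h (adjusted p = 0.693), and 1 array at each time lay within the vehicle range.

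Col15a1 encodes a collagen of the outer face of vessel and muscle basement membranes. Its levels were 8.40, 7.82, 8.19 and 7.31 at 6 h, 8.46, 7.88, 8.16 and 6.97 at 24 h and 8.73, 9.003 and 8.90 in vehicle skin. The highest treated array, 24 h replicate 1 at 8.46, lay below the lowest vehicle array, replicate 1 at 8.73. The difference was -0.95 ± 0.34, or 1.93-fold lower, at 6 h (adjusted p = 0.235) and -1.01 ± 0.34, or 2.02-fold lower, at 24 h (adjusted p = 0.552). Without 24 h replicate 4 the 24 h difference was -0.71.

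Col7a1 forms the anchoring fibrils that tie the epidermis to the dermis. Its levels were 8.65, 8.71, 7.96 and 8.03 at 6 h, 7.93, 7.75, 8.15 and 9.85 at 24 h and 6.80, 8.28 and 8.04 in vehicle skin. Col17a1, a transmembrane collagen of the hemidesmosome, had levels of 12.04, 11.30, 9.85 and 10.20 at 6 h, 10.66, 10.72, 10.23 and 12.49 at 24 h and 9.85, 10.61 and 10.93 in vehicle skin. In both genes 24 h replicate 4 was the highest array and vehicle replicate 1 the lowest, and the groups overlapped. Col7a1 showed differences of 0.63 ± 0.50 at 6 h and 0.71 ± 0.50 at 24 h, and Col17a1 of 0.39 ± 0.60 and 0.56 ± 0.60. In the values as deposited, Col17a1 differed by -0.40 and -0.12, and Col7a1 by -0.15 at 6 h. Without 24 h replicate 4 the 24 h differences were 0.24 for Col7a1 and 0.07 for Col17a1, and without 6 h replicate 1 the 6 h difference of Col17a1 was -0.01. Without vehicle replicate 1 the differences at 6 h and 24 h were 0.18 and 0.26 for Col7a1 and 0.081 and 0.26 for Col17a1. The basal keratinocyte markers, of which Col17a1 is 1 of 9, stood high on some of the same arrays: their median over genes, relative to the vehicle mean, was 1.26 and 0.90 on 6 h replicates 1 and 2 and 1.59 on 24 h replicate 4, and between -0.22 and 0.30 on the other treated arrays. Their part in the levels of Col7a1, Col17a1, Col4a5 and Col4a6 was not tested. Col18a1, which yields the fragment endostatin, had levels of 6.98 to 8.14 at 6 h, 7.48 to 8.42 at 24 h and 7.62 to 8.09 in vehicle skin.

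The other chains were led by collagen VI, which forms beaded filaments around cells of the dermis. Over the 10 chains the median difference was -0.32 at 6 h and -0.29 at 24 h, and these signs held under each scaling. Differences below 0 numbered 8 and 7 of 10, against 49.6% and 52.4% of all genes. Col6a1 levels were 10.22, 9.89, 10.15 and 8.64 at 6 h, 10.34, 9.22, 9.79 and 9.65 at 24 h and 10.86, 10.46 and 10.60 in vehicle skin. Col6a2 levels were 10.63, 10.53, 10.71 and 10.08 at 6 h, 10.68, 10.27, 10.20 and 9.87 at 24 h and 11.57, 11.13 and 11.19 in vehicle skin. Col6a3 levels were 11.65, 11.12, 12.02 and 11.46 at 6 h, 11.41, 11.81, 11.52 and 10.63 at 24 h and 12.52, 11.82 and 11.82 in vehicle skin. Treated arrays lay below all vehicle arrays at both times for Col6a1 and Col6a2, and at 24 h for Col6a3, where 24 h replicate 2 at 11.81 came close to vehicle replicate 4 at 11.82. In Col6a3 6 h replicate 3 was inside the vehicle range.

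Col6a2 had the smallest p of the set at both times. Its means were 10.49 ± 0.28 at 6 h and 10.25 ± 0.33 at 24 h (SD, n = 4 each), against 11.30 ± 0.24 in vehicle skin (SD, n = 3). The difference was -0.81 ± 0.23, or 1.76-fold lower, at 6 h (adjusted p = 0.173) and -1.05 ± 0.23, or 2.07-fold lower, at 24 h (adjusted p = 0.442). Leaving out single arrays kept the 6 h difference between -0.90 and -0.68 and the 24 h difference between -1.19 and -0.91. A second Col6a2 probe set differed by -1.09 and -1.22. Col6a1 differed by -0.91 ± 0.37 at 6 h and -0.89 ± 0.37 at 24 h, and Col6a3 by -0.49 ± 0.31 and -0.71 ± 0.31, with adjusted p from 0.272 to 0.639. Col6a3 was at -0.25 at 6 h without vehicle replicate 1, Col6a1 at -0.55 at 6 h without 6 h replicate 5 and Col6a3 at -0.47 at 24 h without 24 h replicate 4.

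Col14a1 and Col12a1 encode fibril-associated collagens that coat collagen I fibrils. Col14a1 levels were 9.49, 9.84, 9.99 and 10.18 at 6 h, 10.57, 9.60, 10.54 and 7.85 at 24 h and 10.26, 10.45 and 10.97 in vehicle skin. Every 6 h array was below every vehicle array, while 24 h replicates 1 and 3 were within the vehicle range and replicate 4 was far below it. Col12a1 levels were 7.93, 6.83, 7.01 and 6.93 at 6 h, 6.67, 8.12, 6.86 and 7.92 at 24 h and 8.11, 7.65 and 7.85 in vehicle skin, with 6 h replicate 1 apart from the other 6 h arrays. Col14a1 differed by -0.69 ± 0.54 at 6 h and -0.92 ± 0.54 at 24 h, the second being -0.33 without 24 h replicate 4. Col12a1 differed by -0.69 ± 0.38 and -0.48 ± 0.38, and its 24 h value turned to 0.13 with the mean of its 4 probe sets. Col13a1, a transmembrane collagen, was dim, with levels of 5.65, 5.67, 5.41 and 5.79 at 6 h, 4.96, 5.22, 5.84 and 5.73 at 24 h and 5.57, 5.56 and 4.70 in vehicle skin and overlapping groups.

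The remaining chains overlapped between groups. Differences at 6 h were -0.08 for Col8a1 and 0.53 for Col8a2, the chains of the collagen VIII network of vessel walls and the eye, -0.16 for Col16a1, a fibril-associated chain, and -0.07 for Col23a1, a transmembrane chain. At 24 h they were -0.02, 0.57, -0.11 and 0.13. Col8a2 was highest on 24 h replicate 4, at 9.24, and Col8a1 lowest there, at 4.91. Without that array the 24 h differences were 0.48 for Col8a1, 0.024 for Col8a2, -0.21 for Col16a1 and -0.16 for Col23a1.

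The processing enzymes had the lowest median of the 4 classes against vehicle at both times, except that basement membrane chains were lower at 24 h with array weights and without 24 h replicate 4. Over the 11 tested, the median difference was -0.70 at 6 h and -0.73 at 24 h, and both signs held under each scaling. Differences below 0 numbered 11 and 10 of 11, against 49.6% and 52.4% of all genes. Without 24 h replicate 4 the 24 h median was -0.38. No enzyme passed the adjusted threshold. Below every vehicle array lay 4 of 11 at 6 h and 2 of 11 at 24 h, against 8.77% and 6.02% of all genes.

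Plod1, Plod2 and Plod3 encode lysyl hydroxylases, which prepare collagen for cross-links, and Plod3 also adds sugars to hydroxylysine. Plod3 levels were 6.49, 6.47, 6.95 and 5.79 at 6 h, 7.22, 5.54, 6.47 and 6.999 at 24 h and 7.97, 7.55 and 7.72 in vehicle skin. Plod1 levels were 7.18, 7.03, 7.34 and 6.97 at 6 h, 7.44, 7.21, 7.27 and 6.49 at 24 h and 8.30, 7.76 and 7.43 in vehicle skin. All treated arrays were below all vehicle arrays for Plod3, and all 6 h arrays for Plod1, where 24 h replicate 1 at 7.44 reached vehicle replicate 4 at 7.43. Plod3 showed differences of -1.32 ± 0.38, or 2.50-fold lower, at 6 h (adjusted p = 0.177) and -1.19 ± 0.38, or 2.28-fold lower, at 24 h (adjusted p = 0.531). With the actin ratio as a covariate these values were -0.76 and -0.95. Plod1 differed by -0.70 ± 0.26 at 6 h (adjusted p = 0.246) and -0.73 ± 0.26 at 24 h (adjusted p = 0.572).

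Plod2, the lysyl hydroxylase of the chain ends, had levels of 5.76, 6.10, 7.46 and 6.23 at 6 h, 6.23, 8.52, 6.53 and 6.19 at 24 h and 8.67, 6.74 and 6.82 in vehicle skin. Vehicle replicate 1 and 24 h replicate 2 stood above all other arrays, and the groups overlapped. The difference was -1.02 ± 0.65 at 6 h and -0.54 ± 0.65 at 24 h. Without vehicle replicate 1 these values were -0.39 and 0.09, and without 24 h replicate 2 the 24 h value was -1.09. A second Plod2 probe set differed by -1.09 at 6 h and -1.24 at 24 h.

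Lox and Loxl1 encode lysyl oxidases, which cross-link collagen and elastin. Lox levels were 9.19, 8.79, 10.45 and 10.22 at 6 h, 10.41, 10.19, 10.53 and 7.66 at 24 h and 11.83, 10.53 and 10.43 in vehicle skin. 24 h replicate 4 and 6 h replicates 1 and 2 were low, vehicle replicate 1 was high, and the other arrays lay together between 10.19 and 10.53. Loxl1 levels were 9.50, 10.10, 10.46 and 9.85 at 6 h, 10.87, 10.28, 10.62 and 8.83 at 24 h and 11.20, 10.79 and 10.89 in vehicle skin. All 6 h arrays were below all vehicle arrays, and at 24 h replicate 1 was inside the vehicle range. The Lox difference was -1.27 ± 0.68 at 6 h and -1.23 ± 0.68 at 24 h, with adjusted p of 0.392 and 0.68. Without 24 h replicate 4 it was -0.55 at 24 h, and without vehicle replicate 1 it was -0.82 at 6 h. Loxl1 differed by -0.98 ± 0.42 and -0.82 ± 0.42, the 24 h value being -0.38 without 24 h replicate 4.

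Pcolce, listed in this class though not itself an enzyme, encodes an enhancer of the protease that removes the C-terminal propeptide of procollagen. Its levels were 10.90, 10.69, 11.31 and 10.95 at 6 h, 11.32, 10.86, 11.08 and 9.23 at 24 h and 11.78, 11.65 and 11.73 in vehicle skin, and all treated arrays lay below all vehicle arrays. It differed by -0.76 ± 0.41 at 6 h (adjusted p = 0.391) and -1.10 ± 0.41 at 24 h (adjusted p = 0.59), and by -0.63 at 24 h without replicate 4. Its relative Pcolce2 differed by -0.64 and -1.13, with 24 h replicate 4 at 7.77 and all other arrays at 9.66 to 11.32, and its 24 h value was -0.41 without that array. Bmp1, the protease itself, differed by -0.29 and -0.34. A dimmer Bmp1 probe set differed by -0.94 and -0.75, and another lay at the floor.

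The prolyl 4-hydroxylases stabilise the helix. P4ha1 levels were 7.59, 7.35, 7.62 and 6.63 at 6 h, 7.50, 7.48, 6.69 and 7.06 at 24 h and 7.94, 7.34 and 7.51 in vehicle skin, with a difference of -0.30 ± 0.29 at 6 h and -0.41 ± 0.29 at 24 h. P4ha2, another catalytic subunit, differed by -0.14 and -0.20. P4hb, their common subunit and a general folding enzyme, differed by -0.02 and 0.02.

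**Figure D3:**
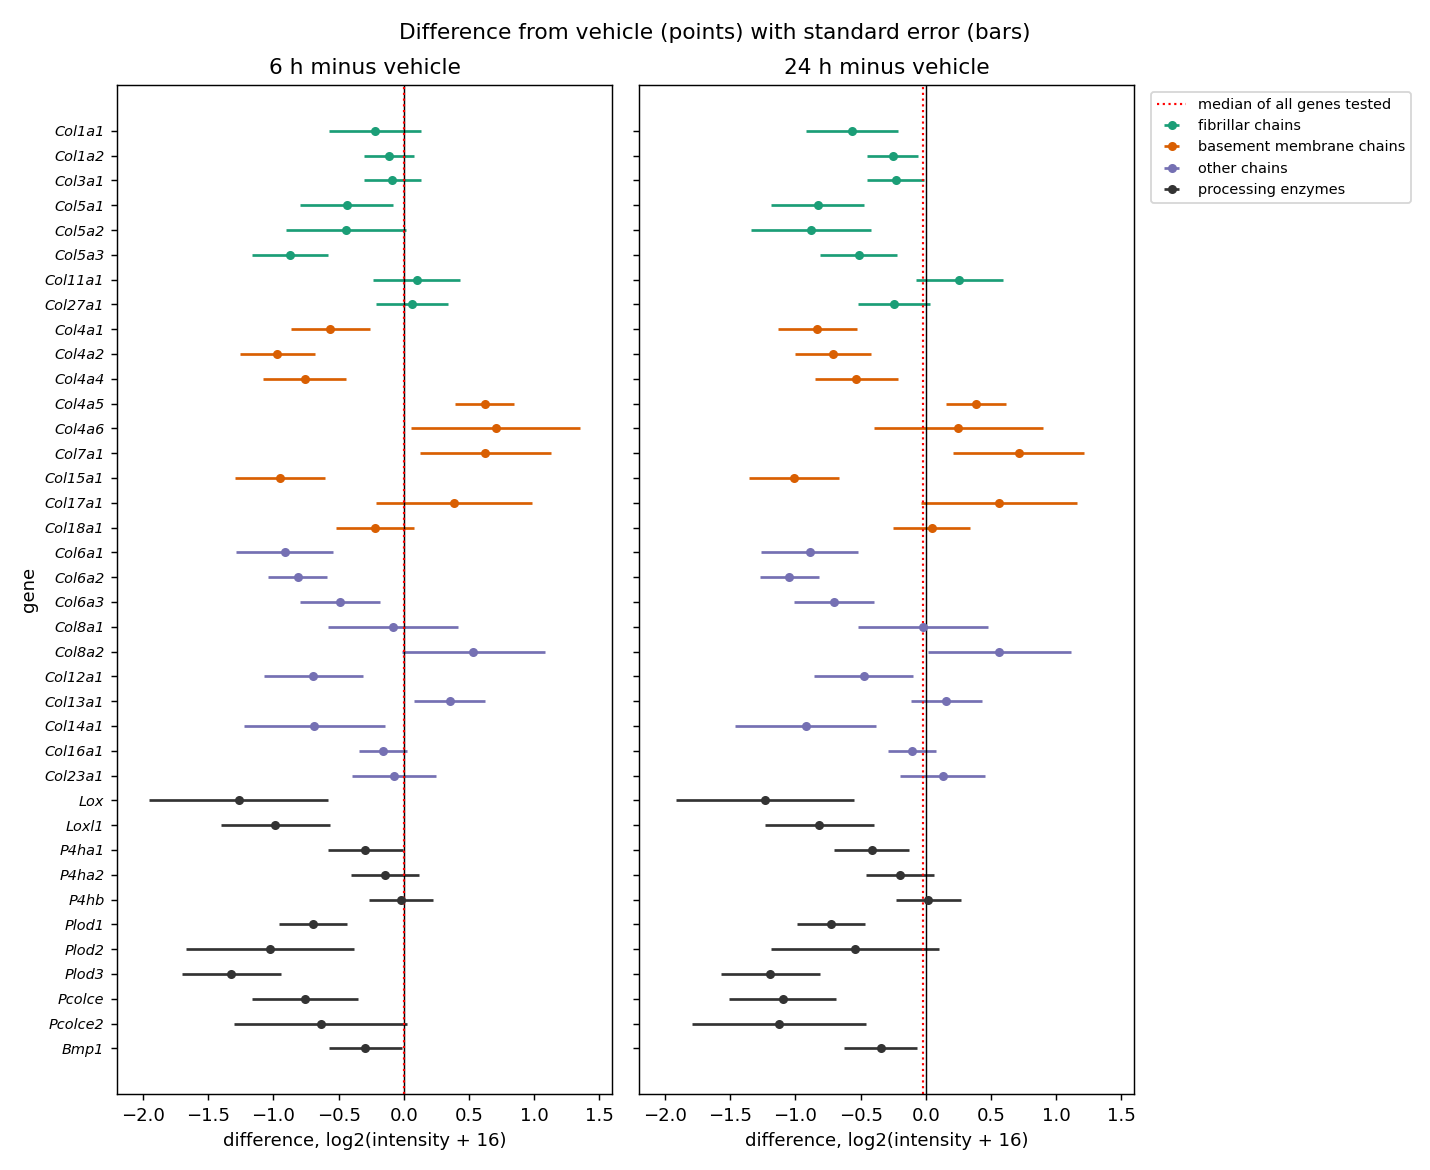
Difference from vehicle of each of the 38 genes at 6 h (left) and 24 h (right), in log2(intensity + 16); points are limma differences, bars their SE, colours the 4 classes, and the dotted line is the median of all 13710 genes (0.0037 at 6 h and -0.020 at 24 h). The enzymes other than P4hb, the collagen VI chains, Col4a1, Col4a2 and Col15a1 lie left of 0 at both times. Col4a5, Col4a6, Col7a1 and Col17a1 lie right of 0, Col4a6 at 24 h only with 24 h replicate 4 included. As deposited, Col4a5 and Col17a1 fall below 0 at both times, Col7a1 at 6 h and Col4a6 at 24 h, as does the median of all genes.

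No gene of the set was called between the times. For 24 h minus 6 h, 20 of 38 differences were below 0 and 18 above, against 52.6% and 47.4% of all genes, the median was -0.04, against -0.019 for all genes, and no gene had groups that did not overlap, against backgrounds of 3.54% lower and 1.92% higher. The genes of smallest p in each class were Col5a3 (0.36 ± 0.27) and Col27a1 (-0.30 ± 0.25), Col4a2 (0.26 ± 0.27) and Col4a5 (-0.23 ± 0.21), Col6a2 (-0.23 ± 0.21) and Col13a1 (-0.20 ± 0.25), and Pcolce (-0.34 ± 0.38) and Plod2 (0.48 ± 0.60). Their adjusted p ran from 0.748 to 0.873. The Pcolce difference was 0.12 without 24 h replicate 4, and the Plod2 difference was -0.07 without 24 h replicate 2.

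Other genes of the pathway were described as lists, and none of them passed the adjusted threshold at either time. Of 19 genes for procollagen folding, modification and secretion, 16 were tested, with a median difference of -0.33 at 6 h and -0.44 at 24 h. Differences below 0 numbered 14 and 13, against 49.6% and 52.4% of all genes. Crtap, which forms a complex with the prolyl 3-hydroxylase P3h1, differed by -0.75 at both times, and P3h1 itself by -0.82 and -0.58. P3h3, its relative, differed by -0.62 and -0.67, with both times below all vehicle arrays, and Tmem38b, a channel of the endoplasmic reticulum, by -0.28 and 0.53. The last value was -0.20 in the values as deposited. Of 10 other extracellular processing genes, 4 were tested, with medians of -0.66 and -0.43. Tll1, a relative of Bmp1, differed by -0.76 and -0.81, Loxl4 by -0.77 and -0.49, Loxl3 by -0.56 and -0.37, and the protease Furin by -0.06 and -0.17. With 24 h replicate 4 left out, the 24 h values were -0.19 for Loxl4 and -0.079 for Loxl3, and the 24 h medians were -0.18 for these processing genes and -0.20 for the folding list. P3h3 was at -0.40 at 24 h without that array.

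Of 11 genes for collagen receptors and uptake, 9 were tested, with medians of -0.29 and -0.46. The 24 h median was -0.055 without 24 h replicate 4. The receptor Ddr2 differed by -0.50 and -0.64, the protease Fap by -0.66 and -0.96, the endocytic receptor Mrc2 by -0.13 and -0.46 and the leukocyte receptor Lair1 by -0.44 and -0.58. The 24 h values of Ddr2, Fap and Mrc2 were -0.29, -0.49 and -0.055 without 24 h replicate 4, and without vehicle replicate 1 Lair1 differed by -0.10 and -0.24. Of 17 regulators of collagen genes, 16 were tested, with medians of 0.04 and 0.12, which were -0.73 and -0.58 as deposited and -0.01 at 6 h with cyclic loess. Tgfb3, a ligand that raises collagen expression, differed by -1.16 ± 0.25 at 6 h (adjusted p = 0.127) and -0.51 ± 0.25 at 24 h. Of its receptors, Tgfbr2 differed by -1.14 ± 0.33 at 6 h and -0.96 ± 0.33 at 24 h, below all vehicle arrays at both times, and Tgfbr1 by 0.45 ± 0.18 and 0.19 ± 0.18. Tgfbr2 was at -0.62 at 24 h without 24 h replicate 4. Sp1, a transcription factor that binds GC-rich promoters, was above all vehicle arrays at both times, with differences of 0.49 ± 0.19 and 0.87 ± 0.19 (adjusted p = 0.442 at 24 h). As deposited, Sp1 differed by -0.28 at 6 h, and Tgfbr1 by -0.32 and -0.54. Of 16 other collagen chains, 4 passed the filter: Col9a1 differed by 0.48 and 0.39, Col20a1 by 0.32 and 0.03, Col22a1 by 0.27 and 0.26 and Col25a1 by -0.01 and -0.58, all dim.

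In bulk skin, fewer cells of a type and less RNA per cell cannot be told apart. The fibroblast markers (14 of 14 tested) had a median difference of -0.48 at 6 h and -0.53 at 24 h. At each time 13 of 14 were below 0, against 49.6% and 52.4% of all genes. Their intensities summed to 30454 to 40110 at 6 h, 14752 to 43073 at 24 h and 43983 to 51507 in vehicle skin. No treated sum reached a vehicle sum. The per-array median of these markers, relative to the vehicle mean, did overlap, with 24 h replicate 1 at -0.06 and vehicle replicate 3 at -0.08. The 24 h median of the fibroblast markers was -0.18 without 24 h replicate 4, with 10 of 14 below 0. Endothelial markers (8 of 8) had medians of -0.70 and -0.73 and summed to 801 to 1139, 580 to 1405 and 1316 to 2344. Macrophage markers (6 of 6) had medians of -0.80 and -0.70 and summed to 8390 to 18774, 3259 to 21094 and 15972 to 29445. Adipocyte markers (9 of 10) had medians of -0.98 and -0.68 and summed to 14614 to 26606, 8808 to 30509 and 26988 to 33149. These 4 lists kept their sign under each scaling, and without 24 h replicate 4 the 24 h medians were -0.56 for endothelial, -0.14 for macrophage and -0.33 for adipocyte markers. Basal keratinocyte markers (9 of 9) had medians of 0.57 and 0.56, which were -0.18 and -0.12 as deposited, and summed to 13918 to 34722, 13904 to 48602 and 10556 to 20588. Their 24 h median was 0.091 without 24 h replicate 4, and without vehicle replicate 1 their medians were 0.30 and 0.27. Hair shaft markers (6 of 8 tested) stood high on 24 h replicate 2, at 2.40 above the vehicle mean, and on vehicle replicate 4, at 1.89. Smooth muscle, skeletal muscle and suprabasal keratinocyte markers had medians between -0.19 and 0.27 at both times, with signs that changed with the scaling except that of suprabasal markers at 24 h, and Schwann cell markers medians of -0.07 and -0.10. The part of these marker levels in the collagen values was not tested.

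**Figure D4:**
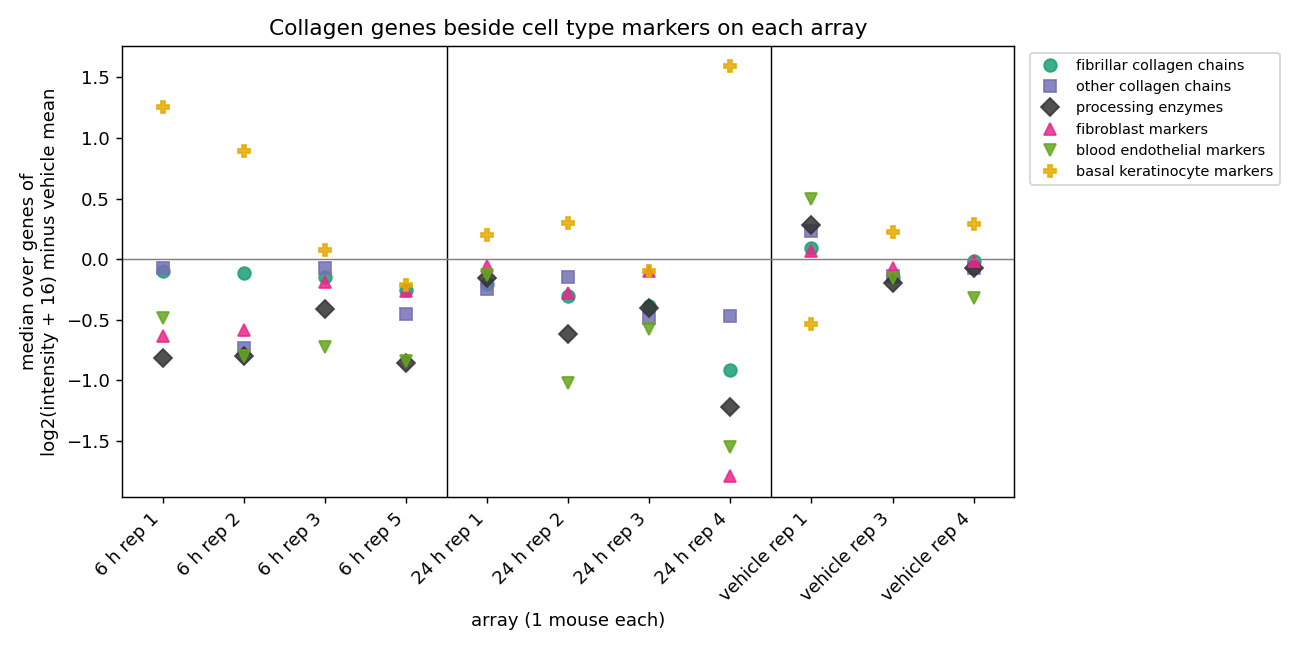
Median over the genes of 6 lists of log2(intensity + 16) minus each gene's vehicle mean, per array, grouped as 6 h, 24 h and vehicle. On 24 h replicate 4 the fibroblast median is -1.79, the endothelial median -1.55 and the enzyme median -1.22, beside 1.59 for basal keratinocyte markers. As deposited, the group medians of basal keratinocyte markers turn below 0, but stay above the median of all genes. The enzyme median lies below 0 on every treated array, but also on vehicle replicates 3 (-0.19) and 4 (-0.07). On 24 h replicate 1 it is -0.16, inside the vehicle range.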

How the data were processed

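Skin RNA from 11 samples in 3 groups was read on Affymetrix 3' arrays. The deposited table held linear intensity for 45101 probe sets on each array. Which software and scaling the authors used to make this intensity is not given in the sources used here. By the platform annotation 34958 probe sets named 1 gene, 932 several and 9211 none, and 34754 of those with 1 gene had a symbol in the RefSeq gene table. For each of 18194 genes the probe set of highest mean over the arrays was kept. Intensities were quantile-normalized, floored at 0 and taken as log2(intensity + 16). Genes above the 40th percentile on at least 3 arrays were tested (13710), with 1 limma 3.58.1 fit of 3 group means in R 4.3.3, a two-sided test and Benjamini-Hochberg adjustment at 0.05. The number of arrays limits the precision. On simulated data for the 6 h comparison over 13710 genes, this test recovered 46% of planted log2 changes of 1 and 84% of those of 2, and called 10 unchanged genes. The simulated noise was drawn independently for each gene and array, without shifts that many genes of an array share. These shares therefore need not hold for the real arrays.

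Members and lists were chosen with earlier results of these data known. Per-array levels are given for the genes of smallest p in each class (4 at 6 h, 4 at 24 h and 2 between times) and for 11 genes of the set named in any case. Col4a6 was added to these and was not picked by its p. The other members are given briefly so that each member is covered. Of each other list the 4 genes of smallest p are named. No file or label names a scan batch. Same-numbered samples of vehicle and 24 h had deviations from their group means that correlated at 0.25, 0.13 and 0.21 over genes. For samples of unlike number this value ran from -0.35 to 0.21, so it does not settle whether the numbers mark pairs, and the labels give no reason for it. Same-numbered samples of vehicle and 6 h correlated at -0.12 and -0.07. The main fit used no pairing, and a block on the replicate numbers of all 3 groups was run as an alternative. The block changed no call for the set. Alternatives were other scalings, pseudocounts, filters, probe set rules, variance models, the replicate block, the actin ratio and leaving out arrays. Leaving out 24 h replicate 4 or vehicle replicate 1 for the lists and the briefly given members was added after seeing the data.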

Additional observations from a re-analysis of the deposited data

Results flagged for a closer look

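In 116 groups of 4 arrays the gap between the most extreme array and its neighbour was set against the range of the group, and it passed Dixon's critical value for 4 samples in 15 of them. Chance alone flags about 1 in 20 such groups, and genes on 1 array are not independent of each other. All values are log2(intensity + 16).

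10 of the 15 were on 24 h replicate 4, with 9 lower than the other 24 h arrays and 1 higher. Fibrillar chains stood low there: Col1a2 at 12.89 (others 13.54 to 13.64), Col3a1 at 13.01 (13.83 to 13.96), Col5a1 at 8.84 (9.94 to 10.10) and Col5a2 at 9.59 (11.45 to 11.60). Col8a1 was at 4.91 (6.72 to 7.07), Lox at 7.66 (10.19 to 10.53), Bmp1 at 7.64 (8.17 to 8.24), Tll1 at 4.66 (5.57 to 5.73) and the uptake receptor Mrc2 at 7.13 (8.69 to 8.79). Col16a1 was high, at 8.98 (8.54 to 8.59). The low fibroblast and high basal keratinocyte marker sums of that array are given above, and their part in these values was not tested.

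The other 5 were spread over 3 arrays. On 6 h replicate 5, Bmp1 was at 7.53 (others 8.23 to 8.36) and Tll1 at 5.73 (5.33 to 5.34). On 6 h replicate 1, Col12a1 was at 7.93 (6.83 to 7.01). On 24 h replicate 2, Plod2 was at 8.52 (6.19 to 6.53) and Col25a1 at 5.48, with the other 3 arrays at the floor of 4.00.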

How the results depend on the processing

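No gene of the set passed the adjusted threshold in any contrast, and this held under each alternative except the deposited values (10 genes at 6 h) and array weights (12 at 6 h). The median of all genes lay at -0.68 at 6 h and -0.62 at 24 h in the deposited values, and between -0.083 and 0.049 under the other scalings. The median of the set was -1.06 at 6 h and -1.09 at 24 h as deposited, and -0.31 at 24 h with array weights. Members below every vehicle array numbered 16 at 6 h (19.4% of all genes) and 22 at 24 h (40.3%) as deposited, and 20 at 6 h (24.0%) without the 3 arrays of low actin ratio. Leaving out single arrays gave 0 called genes in each case, medians of -0.54 to -0.26 at 6 h, -0.56 to -0.27 at 24 h and -0.14 to 0.051 between times, and 9 to 15 and 10 to 15 genes below every vehicle array at 6 h and 24 h. With the replicate block (pairing by number) 0 genes were called and the medians were -0.48, -0.46 and -0.076. With the actin ratio as a covariate 0 genes were called and the medians were -0.41, -0.42 and -0.12. Of 2772 values of 28 named genes of the set and 20 other list genes, 2683 kept their side of the threshold and direction, 31 passed it only under an alternative and 58 changed sign. Why they did was not tested, apart from the shift of all genes in the deposited values.

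The deposited values turned the sign of Col27a1 (-0.47), Col4a5 (-0.17), Col7a1 (-0.15), Col17a1 (-0.40), Col13a1 (-0.026), Col20a1 (-0.32), Col22a1 (-0.074), Sp1 (-0.28) and Tgfbr1 (-0.32) at 6 h, and Col4a5 (-0.35), Col4a6 (-0.0060), Col17a1 (-0.12), Col13a1 (-0.089), Col20a1 (-0.45), Tmem38b (-0.20) and Tgfbr1 (-0.54) at 24 h. Median scaling turned Col1a1 (0.14), Col1a2 (0.62) and Col3a1 (0.68) at 6 h, and Col1a2 (0.11) and Col3a1 (0.15) at 24 h. Cyclic loess turned Col1a2 (0.11) and Col3a1 (0.13) at 6 h. The mean of probe sets turned Col12a1 (0.13) at 24 h. Array weights turned Col25a1 (0.35) at 6 h, and Col4a6 (-0.40), Col13a1 (-0.075), Col22a1 (-0.059) and Loxl3 (0.017) at 24 h, and Pcolce (0.23) between times. The replicate block (pairing by number) turned Col1a1 (0.0046), Col25a1 (0.022) and Furin (0.022) at 6 h, and Col20a1 (-0.034) at 24 h. The actin covariate turned Col1a1 (0.30) and Furin (0.058) at 6 h. Leaving out the 3 arrays of actin ratio under 0.3 turned Col1a1 (0.19) and Furin (0.12) at 6 h, and Col20a1 (-0.032) at 24 h.

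Leaving out single arrays also moved values across 0. At 6 h these ranges were for Col17a1 (-0.011 to 0.72, turned without 6 h replicate 1), Col27a1 (-0.093 to 0.17, turned without 6 h replicate 2), Furin (-0.19 to 0.029, turned without 6 h replicate 3, 6 h replicate 5 and vehicle replicate 4), Col1a1 (-0.43 to 0.074, turned without 6 h replicate 5), Col25a1 (-0.30 to 0.20, turned without 6 h replicate 5, vehicle replicate 1 and vehicle replicate 4), Col22a1 (-0.079 to 0.60, turned without vehicle replicate 4). At 24 h these ranges were for Col20a1 (-0.032 to 0.083, turned without 24 h replicate 2, 24 h replicate 3 and vehicle replicate 4), Col4a6 (-0.45 to 0.65, turned without 24 h replicate 4), Plod2 (-1.09 to 0.086, turned without vehicle replicate 1), Col13a1 (-0.13 to 0.32, turned without vehicle replicate 4), Col22a1 (-0.087 to 0.48, turned without vehicle replicate 4). Between times these ranges were for Plod2 (-0.070 to 0.84, turned without 24 h replicate 2), Pcolce (-0.58 to 0.12, turned without 24 h replicate 4).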
